A study of Mus musculus with 4 samples.

Results

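The genes described here are 9 genes of lipoprotein particles: 8 apolipoprotein genes (Apoa1, Apoa2, Apoa4, Apob, Apoc1, Apoc2, Apoe and Apom) and Mttp, whose product loads lipid onto apolipoprotein B. They were chosen by name from the 39179 genes that the count tables list, and all 9 were found. Earlier results of these data were known when they were chosen. Their counts beside the share of all genes are therefore a description and no test of the choice. RNA was sequenced from 4 individual mouse embryos at stage E7.75, during gastrulation, with 2 embryos per group. Every embryo was a chimera. Embryonic stem cells (ESCs) that carry a FLAG-tagged LHX1, a LIM homeodomain transcription factor, had been injected into 8-cell host embryos from an ARC x RLZRFP cross. Embryos L1 and L2 (replicates 1 and 2) carried FLAG-Lhx1. Embryos M1 and M2 carried FLAG-Lhx1-mt, an altered form that also appears in the labels under a Δ, with no account of what was changed. The recipient females of both groups had 2 mg/mL doxycycline and 5% sucrose in their water for 24 hours. Collection was at E8.5, and the embryos were given the earlier stage because they lagged in development. Contribution of the injected cells was checked by the submitters, and its extent is not known here. Uninduced embryos were not analysed here, so each value below compares FLAG-Lhx1 with FLAG-Lhx1-mt. Injected ESCs are known to build mainly the epiblast and to enter the visceral endoderm poorly.

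Lipoproteins carry cholesterol, triglyceride and phospholipid through body fluids. Their assembly starts in the endoplasmic reticulum, where the microsomal triglyceride transfer protein, encoded by Mttp, lipidates the large scaffold protein APOB. Smaller exchangeable apolipoproteins bind the particle surface, where they act as ligands for receptors and as activators or inhibitors of lipases and of cholesterol esterification. Before the placental circulation and the liver form, the visceral endoderm, an absorptive epithelium around the epiblast, makes and secretes lipoproteins that pass maternal lipid to the embryo.

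In FLAG-Lhx1 embryos, 5 of the 9 genes were lower than in FLAG-Lhx1-mt embryos and 1, Apoa2, was higher. The 5 that fell were Apoa1, Apoa4, Apoc2, Apoe and Apom, by 1.59-fold to 2.62-fold. The same test, edgeR's quasi-likelihood test at an adjusted p under 0.05, called 3.55% of all tested genes lower and 2.62% higher. Apob, Apoc1 and Mttp did not pass. Levels in CPM (counts per 1000000 counts of the library, scaled by TMM, edgeR's correction for library composition) did not overlap between the groups for any of the 9 genes, which was also so for 52.2% of all tested genes. All 9 genes passed the filter on low counts. Their median log2 fold, FLAG-Lhx1 minus FLAG-Lhx1-mt, was -0.67, against 0.01 over all 15822 tested genes. In RNA from whole embryos, fewer cells of a type and less RNA per cell cannot be told apart.

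**Figure D1:**
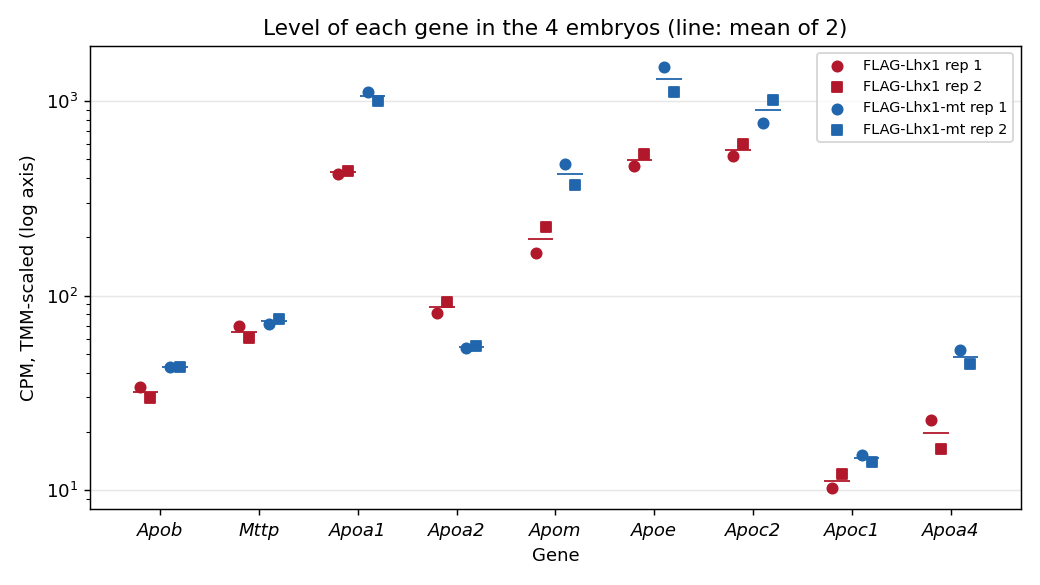
Level of each of the 9 genes in each of the 4 embryos, in CPM scaled by TMM (log axis), with a line at the mean of the 2 embryos of a group. The 2 FLAG-Lhx1 embryos (red) lie below the 2 FLAG-Lhx1-mt embryos (blue) for every gene except Apoa2, where they lie above.

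The total deposited counts ran from 21267116 to 30434442 per embryo, so 3 counts correspond to 0.0959 to 0.153 CPM. Single members had 240 to 34765 counts per embryo. Counting error alone was therefore 0.536% to 6.45% of a member's level, and it covers neither amplification before sequencing nor differences between embryos. Lhx1 itself was at 129 and 114 CPM in L1 and L2 and at 126 and 98.5 CPM in M1 and M2, and it was not called (edgeR adjusted p = 0.733). Which of these reads come from the transgene is not known here, so the value is no check of the labels.

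The upstream sequences of Apoa1, Apoa2 and Apoe are shown here. Apoa1 and Apoa2, whose products share a particle, moved in opposite directions, and Apoe is a gene from another chromosome that fell. The bases are those before the transcription start in RefSeq (GRCm38.p6), on the gene's strand and without bases that GENCODE places inside the gene. Capitals mark matches to 9 short motifs on either strand: 2 forkhead motifs (TGTTTAC and TGTTTGC), the HNF1 half-site GTTAAT, the nuclear receptor half-site AGGTCA, the HNF4 core CAAAGTCCA, 2 GATA motifs (AGATAA and TGATAA), the TAATTA core bound by LIM homeodomain proteins and the TATA box TATAAA.
Apoa1, chr9:46228380-46228579, plus strand: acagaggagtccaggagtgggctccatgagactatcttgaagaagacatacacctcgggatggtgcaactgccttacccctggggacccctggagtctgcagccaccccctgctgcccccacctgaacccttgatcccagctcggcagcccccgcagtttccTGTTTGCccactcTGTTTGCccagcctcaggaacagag
Apoa2, chr1:171224804-171225053, plus strand: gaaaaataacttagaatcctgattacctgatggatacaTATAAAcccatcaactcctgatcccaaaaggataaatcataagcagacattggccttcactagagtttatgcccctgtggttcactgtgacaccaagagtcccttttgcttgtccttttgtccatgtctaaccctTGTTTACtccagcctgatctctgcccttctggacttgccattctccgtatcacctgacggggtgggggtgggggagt
Apoe, chr7:19699189-19699438, minus strand: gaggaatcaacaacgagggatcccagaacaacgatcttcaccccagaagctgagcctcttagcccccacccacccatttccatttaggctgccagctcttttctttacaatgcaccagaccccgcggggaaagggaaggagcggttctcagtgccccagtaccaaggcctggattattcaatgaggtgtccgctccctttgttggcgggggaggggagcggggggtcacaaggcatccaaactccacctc

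The Apoa1 stretch holds TGTTTGC at 2 places, which begin 88 and 75 bases before the RefSeq start. The Apoa2 stretch holds TGTTTAC, which begins 77 bases before the start, and TATAAA, which begins 212 bases before it. The Apoe stretch holds none of the 9 motifs. Among the 250 bases before the start of 27025 RefSeq genes, TGTTTGC occurs in 4.33%, TGTTTAC in 3.08% and TATAAA in 12.95%. Windows were found for 8 of the 9 genes, Apoc1 being the other. TAATTA, which occurs in 4.92% of all windows, is in none of the 8. A match is a description of letters, and no match says only that these letters are absent from this window.

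Apob and Mttp, the scaffold and the enzyme that lipidates it, did not pass the test. Apob (ENSMUSG00000020609, chr12:7977648-8016835, 29 merged exons; gene positions are GENCODE's, on GRCm38) was at 33.8 and 29.9 CPM in L1 and L2. In M1 and M2 it was at 42.8 and 43.1 CPM. The groups do not overlap, but the gap is small: the log2 fold was -0.43 ± 0.16 (SE, edgeR adjusted p = 0.138), with a 95% interval of -0.78 to -0.08 for this gene alone. Apob was called lower in 1 of 11 alternative analyses, the one with offsets for transcript length and GC content (log2 fold -0.73, adjusted p = 0.0175). Its longest annotated transcript has 13934 bases. Longer transcripts tended to higher log2 folds across all tested genes (rho = 0.245, Spearman, across genes of these 4 libraries). The other apolipoprotein members are shorter, with 518 to 1815 bases. With the same offsets their falls were smaller, with log2 folds of -1.12 for Apoa1, -1.19 for Apoa4, -1.28 for Apoe and -0.92 for Apom, all 4 still called. Apoc1 was at -0.14, and Mttp went the other way, to -0.30.

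Mttp (ENSMUSG00000028158, chr3:138089854-138144968) was at 69.6 and 60.8 CPM in L1 and L2 and at 71.3 and 76.1 CPM in M1 and M2. L1 lay just below M1. The log2 fold was -0.18 ± 0.15 (SE, edgeR adjusted p = 0.545), and its 95% interval, -0.49 to 0.14, leaves room for changes in either direction. Per unit of Mttp, Apob stood at 0.486 in L1, 0.492 in L2, 0.600 in M1 and 0.566 in M2, a ratio lower in both FLAG-Lhx1 embryos (exact permutation p = 0.333). Of the exon bases of Mttp, 7.36% also lie in exons of Trmt10a on the opposite strand.

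Apoa1, Apoa2 and Apom belong to high density lipoprotein. APOA1 is its main structural protein and activates the enzyme that esterifies cholesterol, APOA2 is its second major protein, and APOM carries sphingosine 1-phosphate. Apoa1 (ENSMUSG00000032083, chr9:46228580-46230466) was at 420 and 436 CPM in L1 and L2, and at 1108 and 1001 CPM in M1 and M2. The 2 embryos of each group were close together and the groups far apart, with means of 428 ± 11.2 and 1054 ± 75.6 CPM (SD, n = 2 each). Apoa1 fell by 1.30 on the log2 scale (SE 0.15, edgeR adjusted p = 0.000119).

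Apoa2 (ENSMUSG00000005681, chr1:171225054-171226379) went the other way. It was at 81.7 and 92.3 CPM in L1 and L2, and at 53.99 and 54.96 CPM in M1 and M2. Both FLAG-Lhx1 embryos were above both FLAG-Lhx1-mt embryos, which hardly differed from each other. Apoa2 rose by 0.68 on the log2 scale (SE 0.15, edgeR adjusted p = 0.0144), or 1.60-fold. Leaving out L2 ended the call (log2 fold 0.60, edgeR adjusted p = 0.131). With offsets for length and GC content the fold was 0.89 (adjusted p = 0.00291).

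The ratio of Apoa2 to Apoa1 within an embryo does not depend on library size. Per unit of Apoa1 CPM, the CPM of Apoa2 was 0.194 and 0.212 in L1 and L2, and 0.0487 and 0.0549 in M1 and M2. The ratio was thus higher in both FLAG-Lhx1 embryos, by 1.97 on the log2 scale. An exact two-sided permutation test gave p = 0.333, the smallest value that 2 embryos against 2 allow. The difference follows from the folds of the 2 genes given above and is no added evidence. For this and the other ratios given here, no share was computed over all gene pairs.

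Apom (ENSMUSG00000024391, chr17:35128997-35132050) was at 166 and 225 CPM in L1 and L2 and at 471 and 368 CPM in M1 and M2. The embryos varied more within a group than for Apoa1, yet the groups stayed apart. Apom fell by 1.10 on the log2 scale (SE 0.17, edgeR adjusted p = 0.00196).

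Apoe, Apoa4 and the C apolipoproteins are exchangeable surface proteins. APOE is the ligand through which remnant particles bind their receptors on cells. Apoe (ENSMUSG00000002985, chr7:19696109-19699188) was at 460 and 532 CPM in L1 and L2, and at 1490 and 1111 CPM in M1 and M2. Both FLAG-Lhx1-mt embryos were far above both FLAG-Lhx1 embryos, and M1 stood above M2. Apoe fell by 1.39 on the log2 scale (SE 0.17, edgeR adjusted p = 0.000268). By CPM it ranked 60 and 104 among all genes in M1 and M2, and 328 and 296 in L1 and L2.

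Apoa4, a lipid-binding protein of triglyceride-rich and high density particles, fell by 1.30 on the log2 scale (SE 0.19, edgeR adjusted p = 0.0012). It lies close to Apoa1 (ENSMUSG00000032080, chr9:46240696-46243459) and was at 23.0 and 16.3 CPM in L1 and L2 against 52.4 and 44.8 CPM in M1 and M2. Per unit of Apoa1, it stood at 0.0547 and 0.0374 in L1 and L2 and at 0.0473 and 0.0448 in M1 and M2, so these ratios overlap (exact permutation test, p = 1). The value of Apoa4 is uncertain: 34.8% of its exon bases also lie in exons of Gm10680, a listed gene read from the opposite strand, which has 0 counts in every embryo. Whether the counting used strand is not known here.

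Apoc2, the cofactor that activates lipoprotein lipase, was at 520 and 601 CPM in L1 and L2 and at 772 and 1014 CPM in M1 and M2 (ENSMUSG00000002992, chr7:19671579-19677941). It fell by 0.67 on the log2 scale (SE 0.16, edgeR adjusted p = 0.0252). No other member call was ended by as many of the alternative analyses. Leaving out L1 ended it (log2 fold -0.60, adjusted p = 0.1), as did leaving out M2 (-0.48, adjusted p = 0.0661), upper-quartile normalization (-0.62, adjusted p = 0.0548) and offsets for length and GC content (-0.46, adjusted p = 0.114). Of the exon bases of Apoc2, 79.5% also lie in Gm44805 on the same strand, which the tables used here do not list.

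Apoc1, which inhibits lipoprotein lipase and the receptor uptake of remnants, did not pass (ENSMUSG00000040564, chr7:19689481-19692660). Its levels were 10.3 and 12.2 CPM in L1 and L2 and 15.2 and 14.1 CPM in M1 and M2. The log2 fold was -0.38 ± 0.22 (SE, edgeR adjusted p = 0.344), with a 95% interval of -0.85 to 0.09. That interval holds both a moderate fall and no change.

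Apoc2 and Apoc1 were also set against Apoe, their neighbour, within each embryo. Per unit of Apoe CPM, Apoc2 stood at 1.129 in L1, 1.131 in L2, 0.518 in M1 and 0.913 in M2. Apoc1 stood at 0.0223, 0.0230, 0.0102 and 0.0127 in the same embryos. Both ratios were higher in the 2 FLAG-Lhx1 embryos, by 0.72 and 0.99 on the log2 scale, which follows from the folds above. The exact permutation p was 0.333 for each, the smallest that this design allows. In contrast, Apoe per unit of Apoa1 overlapped between the groups, at 1.22 in L2 and 1.11 in M2, for example (exact permutation p = 0.667).

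**Figure D2:**
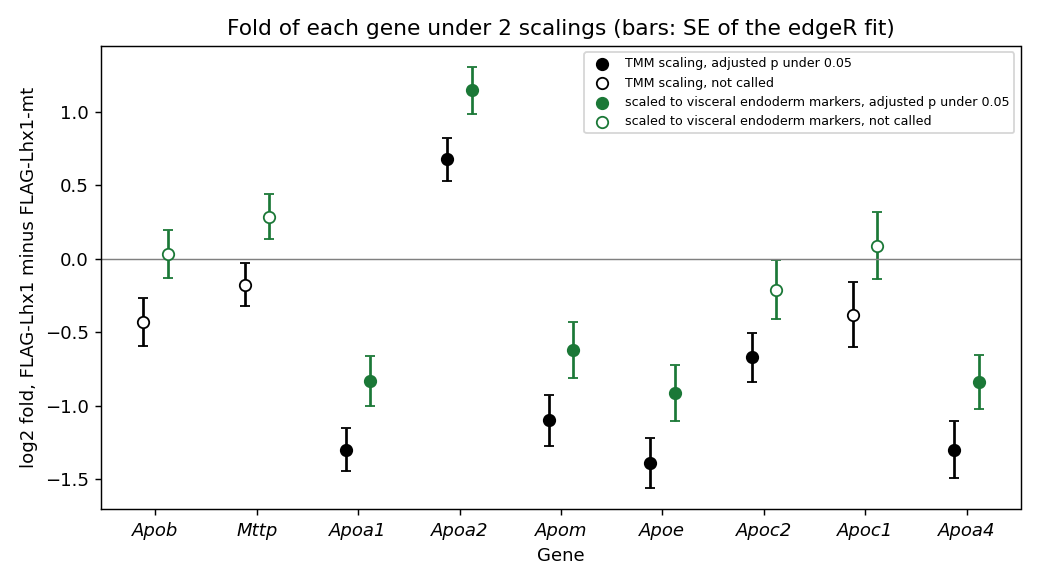
Log2 fold of each gene, FLAG-Lhx1 minus FLAG-Lhx1-mt, with its SE from edgeR, under TMM scaling (black) and with libraries scaled to the visceral endoderm markers (green); filled points have an adjusted p under 0.05. Apoa1, Apom, Apoe and Apoa4 lie below 0 and Apoa2 above 0 under both scalings, while Apob, Mttp and Apoc1 move to the other side of 0.

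Summed over the 9 genes, the level was 1785 and 2006 CPM in L1 and L2 and 4076 and 3727 CPM in M1 and M2. The FLAG-Lhx1-mt embryos thus carried 2.06 times as much of this RNA. As a share of all deposited counts, the 9 genes made up 0.185% in both FLAG-Lhx1 embryos and 0.411% and 0.383% in M1 and M2. Within the sum, Apoa2 took 4.58% and 4.60% in L1 and L2 and 1.32% and 1.47% in M1 and M2. Mttp took 3.90% and 3.03% against 1.75% and 2.04%. Apoe took 25.8% and 26.5% in FLAG-Lhx1 against 36.6% and 29.8% in FLAG-Lhx1-mt. The groups do not overlap for these 3 shares, nor for those of Apoa1, Apob, Apoc1 and Apoc2, but they overlap for Apoa4 and Apom. Shares of 1 sum depend on each other, and no such measure was computed over all genes.

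**Figure D3:**
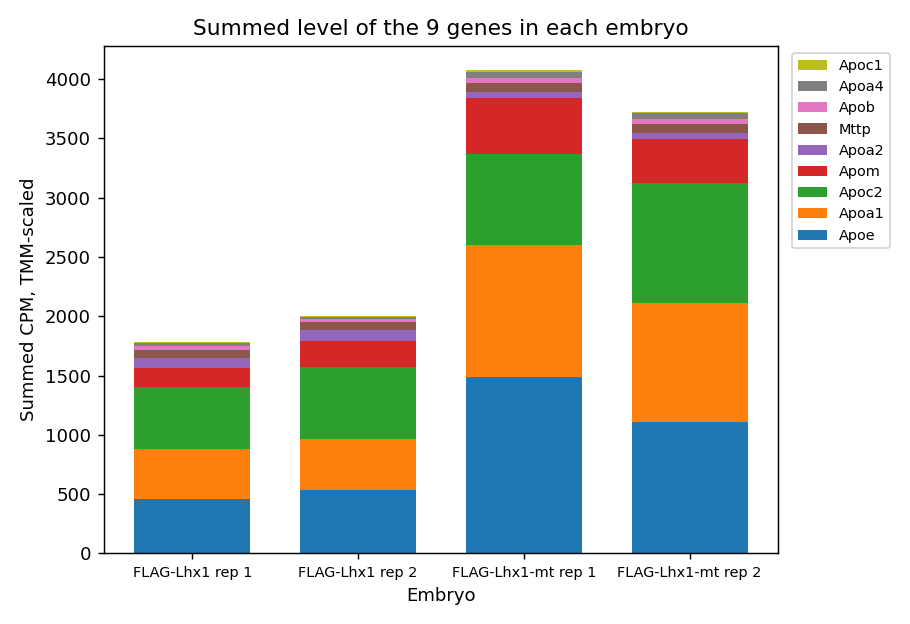
Summed CPM of the 9 genes in each embryo, stacked by gene. The 2 FLAG-Lhx1 bars reach 1785 and 2006 CPM and the 2 FLAG-Lhx1-mt bars 4076 and 3727 CPM, with Apoe, Apoa1 and Apoc2 making up most of each bar.

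To compare levels between genes, CPM were divided by the length of the longest annotated transcript. In FLAG-Lhx1-mt, Apoc2 had 1228 ± 236 CPM per kilobase, Apoa1 1019 ± 73.1 and Apoe 924 ± 190 (SD, n = 2 each). By this length, neighbours in this order overlap between embryos. Apom followed at 414 ± 72.3 CPM per kilobase and Apoa2 at 105 ± 1.33. Apoc1 and Apoa4 overlapped, at 27.5 ± 1.52 and 26.8 ± 2.96, and Mttp (18.6 ± 0.859) and Apob (3.08 ± 0.0166) came last.

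In FLAG-Lhx1 the order per kilobase was Apoc2 (771 ± 79.4), Apoa1 (414 ± 10.8), Apoe (352 ± 35.7), Apom (193 ± 41.6) and Apoa2 (168 ± 14.4; SD, n = 2 each). Apom and Apoa2, which did not overlap in FLAG-Lhx1-mt, overlap here. Apoc1 (21.1 ± 2.58), Mttp (16.5 ± 1.56), Apoa4 (10.8 ± 2.60) and Apob (2.29 ± 0.198) followed, so Mttp and Apoa4 changed places. With merged exon length in place of transcript length, Apoa4 stood above Apoc1 in both FLAG-Lhx1-mt embryos, and Apoa4 and Mttp overlapped in FLAG-Lhx1. By merged length, Apoc2 (949 and 1248 CPM per kilobase in M1 and M2), Apoa1 (896 and 810) and Apoe (697 and 520) did not overlap.

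The members lie in 2 clusters and at 4 single sites. Apoa1 and Apoa4 share a cluster on chromosome 9 with Apoc3 and Apoa5. Apoc3, whose product inhibits lipoprotein lipase, was at 2.82 and 4.73 CPM in L1 and L2 and at 6.74 and 5.66 CPM in M1 and M2, and it was not called (log2 fold -0.72, edgeR adjusted p = 0.212). Apoa5 was not called either (-0.54, adjusted p = 0.549). Apoe, Apoc1 and Apoc2 share a cluster on chromosome 7 with Apoc4, which was low and not called (-1.09, adjusted p = 0.275). Next to Apoe lies Tomm40, which encodes a channel of the outer mitochondrial membrane. It fell by 0.93 on the log2 scale (SE 0.22, edgeR adjusted p = 0.0196, and 0.233 without L2). Of 39 tested protein-coding neighbours within 100 kb of a member, members left out, Tomm40 alone was called lower and none higher. Over all tested genes, 3.55% were called lower and 2.62% higher. The median log2 fold of the neighbours was -0.31, against 0.01 over all tested genes.

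Other apolipoproteins and related particle proteins were not called. Of 19 listed genes, 18 are in the tables and 11 passed the filter on low counts. None was called by edgeR, DESeq2 or limma-voom, 2 had an unadjusted p under 0.05 with edgeR, and the median log2 fold was 0.14. Those 2 were Apoc3, above, and Apool, a mitochondrial member of the wider family, at 92.6 and 102 CPM in L1 and L2 and 78.7 and 76.6 CPM in M1 and M2 (edgeR adjusted p = 0.205, and 0.0029 with libraries scaled to the visceral endoderm markers). Apoh, another abundant plasma apolipoprotein, had 1 to 6 counts per embryo. Of the 11 tested genes, 7 had a log2 fold above 0, among them Apon, Apobr, Apol6 and Apol7a with only 2 to 20 counts per embryo. The 4 below 0 were Clu (-0.04) and the genes of the member clusters, Apoc3, Apoa5 and Apoc4. The median of this list thus rests in part on genes near the floor.

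Among 30 tested genes of lipoprotein assembly and secretion, 1 rose and 2 fell, against 6.17% called in either direction over all genes. Sec24b, which encodes a cargo-binding subunit of the vesicle coat that leaves the endoplasmic reticulum, rose (log2 fold 0.79, edgeR adjusted p = 0.00797). Acsl5, which encodes an acyl-CoA synthetase, fell by 0.74 (adjusted p = 0.0322), and Soat2, which encodes the cholesterol acyltransferase of liver and intestine, fell by 0.88 (adjusted p = 0.0356). Sec24b was at 61.3 and 57.7 CPM in L1 and L2 against 33.2 and 35.7 CPM in M1 and M2. Each of the 3 calls was lost when L1 was left out (adjusted p = 0.0625, 0.0567 and 0.174), that of Acsl5 also without L2 and that of Soat2 without M1. Without M2, 6 genes of the list were called. The median of the list was -0.07.

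On the receptor side, 1 of 20 tested genes rose and 1 fell, and 2 rose and 2 fell without M2. Vldlr, which encodes a receptor for APOE-containing particles, was at 22.2 and 22.7 CPM in L1 and L2 against 11.0 and 8.79 CPM in M1 and M2 (log2 fold 1.19 ± 0.21, SE, edgeR adjusted p = 0.00457). Cubn, which encodes cubilin, the endocytic receptor that binds APOA1 and high density lipoprotein, was at 166 and 158 CPM against 244 and 250 CPM. It fell by 0.61 (SE 0.14, adjusted p = 0.0171), and was no longer called once L2 was left out. Its partner Lrp2 was not called (log2 fold -0.12, adjusted p = 0.723). Lrp2 was picked from the list after its values were seen.

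Of 15 tested genes of lipases, lipid transfer and cholesterol efflux, 1 rose and 1 fell. Abca1, which encodes the transporter that loads cholesterol onto APOA1, was at 10.3 and 10.9 CPM in L1 and L2 against 4.55 and 1.63 CPM in M1 and M2. It rose by 1.80 on the log2 scale (SE 0.37, edgeR adjusted p = 0.0109), by 2.69 without M1 and by 1.20 without M2. Abcg1, which encodes a transporter that passes cholesterol on to formed particles, fell by 1.20 (SE 0.32, adjusted p = 0.0387). It was at 7.90 and 3.36 CPM against 13.8 and 12.3 CPM, was not called in the absence of L2, and had a log2 fold of -1.99 without L1. Of 21 tested regulators of apolipoprotein genes, only Gata4 was called. It fell by 1.02 (SE 0.24, adjusted p = 0.0194), from 13.1 and 14.8 CPM in M1 and M2 to 7.29 and 6.51 CPM in L1 and L2, and it was not called without L2. Hnf4a, the nuclear receptor of liver and visceral endoderm that binds many apolipoprotein promoters, was not called (log2 fold -0.60, adjusted p = 0.117). It was called lower when M1 was left out (log2 fold -0.78, adjusted p = 0.0154), and it is named here after its values were seen.

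**Figure D4:**
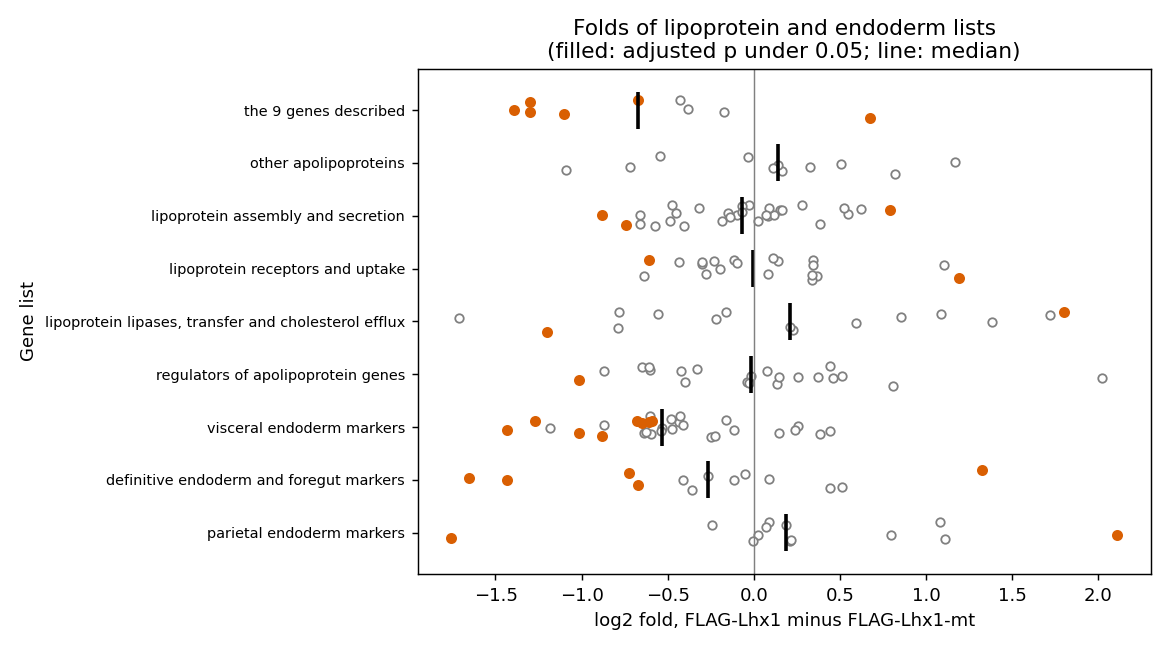
Log2 fold of each tested gene by list, FLAG-Lhx1 minus FLAG-Lhx1-mt, with filled points for an adjusted p under 0.05 and a line at the median. The medians were -0.67 for the 9 genes and -0.54 for the visceral endoderm markers, and between -0.07 and 0.21 for the 5 other lipoprotein lists.

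Some markers of the visceral endoderm fell too. Of 30 markers, all tested and none of them a member, 8 fell and none rose, with a median log2 fold of -0.54. The share called lower over all tested genes was 3.55%. Cldn6, a tight junction gene also on in other early epithelia, fell by 1.43 (edgeR adjusted p = 8.14e-05), Tdh by 1.27 (adjusted p = 0.00231) and Cubn as above. Cubn, Soat2 and Gata4, given above as calls of other lists, are among these 8. Cldn6 is also on the definitive endoderm list. The number of markers called was 4 without L2, 5 without L1 and 16 without M2. Their summed level was 4075 and 3825 CPM in L1 and L2 and 5921 and 5021 CPM in M1 and M2. The FLAG-Lhx1-mt mean was 1.39 times the FLAG-Lhx1 mean, against 2.06 times for the 9 genes, whose sum is mostly Apoe, Apoa1 and Apoc2. The median log2 folds lay closer, at -0.54 for the markers and -0.67 for the 9 genes. Other lists fell as well, and several share genes. The same ratio of sums was 1.49 for definitive endoderm and foregut markers, 1.37 for anterior visceral endoderm markers and 3.77 for trophoblast markers. It was 1.00 to 1.14 for parietal endoderm, blood, macrophage and decidua markers and 0.61 for liver markers. The anterior visceral endoderm markers had a median log2 fold of -0.53.

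The members were also set against the visceral endoderm markers within each embryo. Per unit of summed marker CPM, Apoa1 stood at 0.103 and 0.114 in L1 and L2 and at 0.187 and 0.199 in M1 and M2. Apoe stood at 0.113 and 0.139 against 0.252 and 0.221. Both remained lower in FLAG-Lhx1 on this scale. Apob, by contrast, stood at 0.00830 and 0.00782 in L1 and L2 and at 0.00722 and 0.00858 in M1 and M2, so the groups overlap. Emb, a cell surface glycoprotein gene, makes up a large part of the marker sum. Without Emb, which was left out after its values were seen, the log2 difference per marker CPM was -0.70 for Apoa1 and -0.78 for Apoe. The FLAG-Lhx1-mt mean of the marker sum without Emb was 1.51 times the FLAG-Lhx1 mean.

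A fit with library sizes set by the geometric mean of the 30 markers, added after the data were seen, gives a test on that scale. It moves the median of all tested genes up by 0.46, so its folds are relative to the markers. Apoa1 (log2 fold -0.83 ± 0.17, SE, edgeR adjusted p = 0.00379), Apoe (-0.91 ± 0.19, adjusted p = 0.004), Apoa4 (-0.84 ± 0.18, adjusted p = 0.00531) and Apom (-0.62 ± 0.19, adjusted p = 0.027) were lower relative to the markers. Apoa2 was higher (1.14 ± 0.16, adjusted p = 0.000484). Apoc2 was no longer called (-0.21 ± 0.20, adjusted p = 0.45). Apob (0.03), Apoc1 (0.09) and Mttp (0.28) changed sign and were not called. Other tissues of the embryo also express several of these markers, and the scaling factors carry the markers' own spread between embryos, which the SE does not include.

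**Figure D5:**
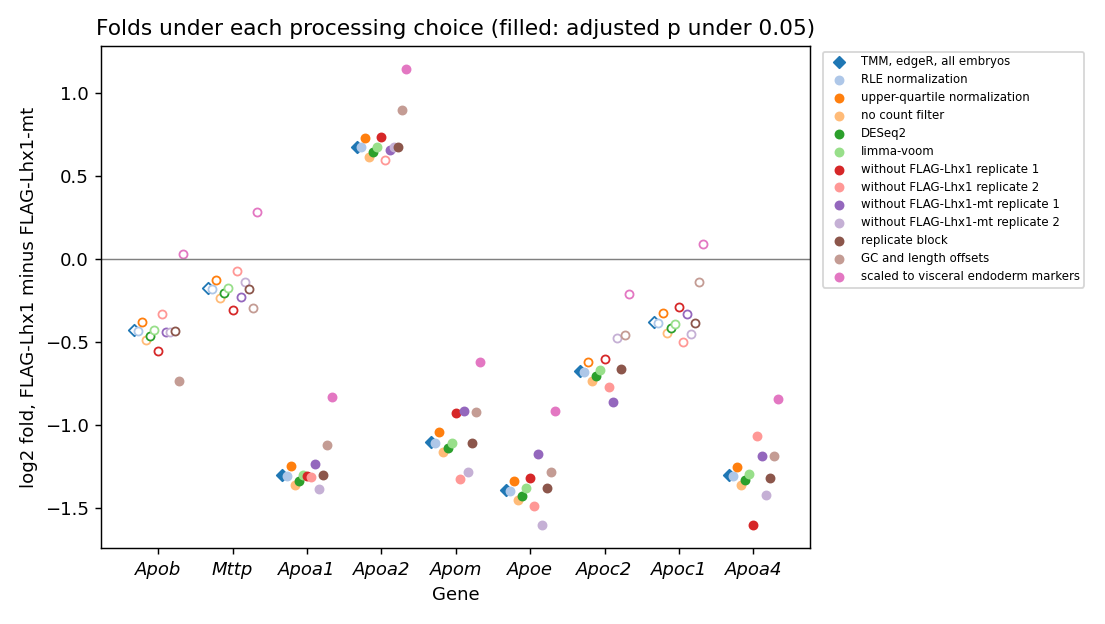
Log2 fold of each gene under every processing choice, FLAG-Lhx1 minus FLAG-Lhx1-mt, with filled points for an adjusted p under 0.05. Apoa1, Apom, Apoe and Apoa4 were filled and below 0 in all 13 analyses, and Apoa2 was above 0 in all 13 and filled in 12.

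Markers of liver and of macrophages were low. Macrophages make Apoe, and the adult liver makes most of the 9 products. Alb, which encodes albumin, had 1 to 5 counts per embryo. The 11 liver markers summed to 5.72 and 9.62 CPM in L1 and L2 and to 4.29 and 5.02 CPM in M1 and M2. The macrophage marker C1qa had 0 to 5 counts, and the 13 macrophage and leukocyte markers summed to 5.46 and 8.75 CPM in L1 and L2 and to 7.09 and 7.13 CPM in M1 and M2. The part of such cells in the levels of the 9 genes was not tested. None of the 3 tested liver or 5 tested macrophage markers was called by edgeR, DESeq2 or limma-voom, and 1 and 0 of them had an unadjusted p under 0.05 with edgeR. The 3 tested liver markers all had log2 folds above 0, with a median of 0.72. Tdo2 had the smallest p of them (log2 fold 1.09, edgeR adjusted p = 0.0761, and 0.00699 with libraries scaled to the visceral endoderm markers). Alb and C1qa were named outside the rule for named genes.

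The 11 primitive blood markers summed to 17.1 and 15.4 CPM in L1 and L2 and to 16.1 and 18.1 CPM in M1 and M2. The 10 decidua markers summed to 16.6 and 13.8 CPM against 17.0 and 17.9 CPM. M2 stood apart in 2 single markers of these lists, picked after their values were seen. It had 52 counts of the decidua gene Prl8a2 and 76 of the globin gene Hba-a1, against 2 to 3 and 1 to 6 counts in the other embryos. Their part in the results was not tested. Without M2, which leaves M1 alone in its group, the log2 folds were -1.38 for Apoa1, -1.60 for Apoe and -1.42 for Apoa4. They were -1.28 for Apom and 0.67 for Apoa2. Of 13 tested parietal endoderm markers, Plat rose (log2 fold 2.11, edgeR adjusted p = 0.0322, not called by DESeq2), with a log2 fold of 4.04 without M1 and 1.24 without M2, and Srgn fell by 1.76 (adjusted p = 0.00194), with summed levels of 464 and 433 CPM in L1 and L2 and 462 and 440 CPM in M1 and M2. Without M1, 4 of these markers were called.

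The definitive endoderm and foregut markers summed to 1057 and 926 CPM in L1 and L2 and to 1478 and 1477 CPM in M1 and M2. Of the 13 tested ones, 4 fell and 1 rose, with a median log2 fold of -0.27. Without L2, and also with offsets for length and GC content, 2 fell and 1 rose. Besides Cldn6, Trh, which encodes the thyrotropin-releasing hormone precursor, fell by 1.66 (edgeR adjusted p = 0.00033), and the carboxypeptidase gene Cpm rose by 1.32 (adjusted p = 0.0143), by 2.00 without M1 and by 0.83 without M2. Of 6 tested anterior visceral endoderm markers, Cer1 and Dkk1, which encode secreted antagonists, fell and the WNT receptor gene Fzd5 rose, and each of these 3 calls was lost when 1 of the embryos was left out (L2 for Cer1, L1 or L2 for Dkk1, L1 or M1 for Fzd5). Offsets for length and GC content also ended the calls of Cer1 (adjusted p = 0.0613) and Fzd5 (adjusted p = 0.0605). Of 9 tested trophoblast markers, only Eomes was called (2 markers without M2), and it is also a gene of the primitive streak. It stood at 13.2 and 9.31 CPM in L1 and L2 and at 43.2 and 153 CPM in M1 and M2. The log2 fold was -3.12 (edgeR adjusted p = 0.00039), -3.76 without M1 and -1.94 without M2. None of 5 tested primitive blood or 6 tested decidua markers was called by edgeR, DESeq2 or limma-voom, and 1 of each list had an unadjusted p under 0.05 with edgeR. With no count filter, edgeR called 1 blood and 1 decidua marker lower, and without M1 it called 2 and 1 lower. Without M2 it called the blood marker Tal1 higher (log2 fold 1.78, adjusted p = 0.00501).

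The genes whose profile over the 4 embryos was most like the mean profile of the 9 were Mlx, Clic5, Higd2a, Slc30a6, Nprl2 and Ruvbl2, among the 9096 other genes that averaged 5 CPM or more. The measure was the root mean square difference of centred log2 CPM, which was 0.00788 for Mlx and 0.0334 for Ruvbl2. With 4 embryos such likeness is easily met: 224 genes lay within 0.1. The mean takes in Apoa2, which rose, and members that were not called. It stood at -0.36 and -0.31 in L1 and L2 and at 0.38 and 0.30 in M1 and M2. This is a smaller step than that of Apoa1, Apoa4, Apoe or Apom. Mlx, at 14.1 and 14.6 CPM in L1 and L2 and 23.7 and 22.6 CPM in M1 and M2, fell by 0.69 on the log2 scale (SE 0.19, edgeR adjusted p = 0.0464), and was not called with either FLAG-Lhx1 embryo left out (adjusted p = 0.204 and 0.207).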

How the data were processed

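The authors deposited whole-number read counts per Ensembl gene, not normalized, 1 table per embryo. Per the labels' protocols, libraries followed Geo-seq with 10 cycles of pre-amplification and 0.5 ng of cDNA, read as 100 bp paired ends. Per the submitters' processing notes, the tools were STAR, featureCounts and Subread, on GRCm38 (mm10). The sources used here give no versions, annotation release or strand setting. Names, positions and lengths were looked up in GENCODE vM21 (GRCm38), where 37693 of 39179 IDs were found.

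Genes were filtered with filterByExpr (minimum count 10, minimum total 15), scaled by TMM and tested with edgeR 4.0.16 (R 4.3.3; estimateDisp, glmQLFit, glmQLFTest, group only). P-values were adjusted by Benjamini-Hochberg over 15822 genes and called under 0.05. SEs are the log2 fold over the root of F, and 95% intervals use 15.4 degrees of freedom, of which 13.4 are borrowed from other genes. Nothing says whether the embryos of a group are of 1 litter, so p-values measure only the spread between these samples. The procedure was tested on simulated data.

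The members and lists were chosen with earlier results of these data known. Named genes are the 9 members, up to 3 called genes of each list by adjusted p or else the 2 with the smallest p, and the 6 nearest profiles, besides genes of the member clusters, and the text names those it describes. Apoh, Alb, C1qa, Prl8a2 and Hba-a1 were named outside this rule. The 9 promoter motifs, the 100 kb window and the marker scaling were added after the tables were read. DESeq2 1.42.0 and limma 3.58.1 served as alternatives.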

Additional observations from a re-analysis of the deposited data

How the results depend on the processing

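Of 99 member folds over 11 alternative analyses, 93 kept direction and side of the threshold, 5 lost a call (Apoc2 in 4 and Apoa2 in 1) and 1 gained one (Apob, -0.73 with offsets for length and GC content). The number of members called was 5 to 6 with each embryo left out, and 5 with upper-quartile normalization or scaling to visceral endoderm markers. That scaling, added after the data were seen, reversed Apob (0.032), Apoc1 (0.088) and Mttp (0.28), none of them called. Over all genes, 976 were called (415 higher, 561 lower), 521 to 1648 with 1 embryo left out (628 without L1, 521 without L2, 1648 without M1 and 1553 without M2), 867 (472 higher, 395 lower) with upper-quartile normalization and 4093 (3939 higher, 154 lower) with the marker scaling. Whether the replicate numbers pair the embryos is not known here. The replicate differences of the 2 groups were nearly uncorrelated across genes (0.02), which cannot settle it with 1 difference per group. With a replicate block, 1138 genes were called, the same 6 members among them. With 2 embryos per group, an exact test of 1 gene cannot go below p = 0.333, so calls rest on the pooled model.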
